A study of Gallus gallus with 4 samples.

Results

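Serine, glycine and asparagine can be built by cells from sugar and from other amino acids, and 8 genes of this synthesis are described here in the breast muscle of Ross 708 and Isfahani chickens. In background, PHGDH, PSAT1 and PSPH turn the glycolytic intermediate 3-phosphoglycerate into serine in sequence, SHMT1 and SHMT2 convert serine to glycine while loading a carbon unit onto folate, and MTHFD2 processes that unit in mitochondria. ASNS makes asparagine from aspartate, with glutamine as the nitrogen donor, and ATF4 is the transcription factor known from mammalian cells to switch on many of these genes when amino acids run short. Muscle also takes these amino acids up from the blood, and in mammals the serine pathway is well known from brain and from dividing cells.

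The study compared the pectoralis muscle of day 28 Ross 708 broilers, a commercial meat line, with that of Isfahani's native chickens of the same age. Each library was a mixture of RNA from 3 birds in equal parts, and 2 such pools per breed, 4 libraries in all, were sequenced as paired reads of 150 bases. The deposited table gives 1 FPKM value (fragments scaled to transcript length and library size) per breed for each gene, so no value below has an SD, and the spread between pools entered only through the authors' own test. The table names its columns Commercial and Native, which were read as Ross 708 and Isfahani. Labels give neither the sex of the birds nor which birds entered which pool, and no label ties the pools to separate flocks, so the deposited q-values may measure only the spread between these pools.

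Genes were chosen by their textbook roles with the FPKM values of this same comparison already known, so the member values and deposited q-values below are a description and not an independent test. Of the 8 symbols, 7 matched a row of the 18973 in the table, each on a single row, and all 7 were among the 11626 rows that the authors tested. SHMT2 had no row under that symbol and was not analysed here. Log2 ratios are of (Ross 708 FPKM + 1) over (Isfahani FPKM + 1), positive where Ross 708 was higher, and a gene was called at a deposited q-value at or under 0.05.

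PHGDH, ASNS and PSAT1 were called higher in Ross 708, so 3 of the 7 members were called in that direction, none was called lower and 4 were not called. Over all tested rows, 5.21% were called, 3.07% higher and 2.14% lower in Ross 708. The members' median log2 ratio was 0.13, against -0.034 over all tested rows, and it was -0.0035 when both breeds were scaled to an equal total FPKM. That total includes 39 rows without a valid estimate that are listed at 0 in Isfahani (status HIDATA), and without them the median was 0.18, as it was on centring the ratios on the median of tested rows. The difference between breeds was therefore not shared by the set: PHGDH and ASNS lay far from 0, PSAT1 nearer to it, and the other 4 within 0.65 log2 units of it.

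**Figure D1:**
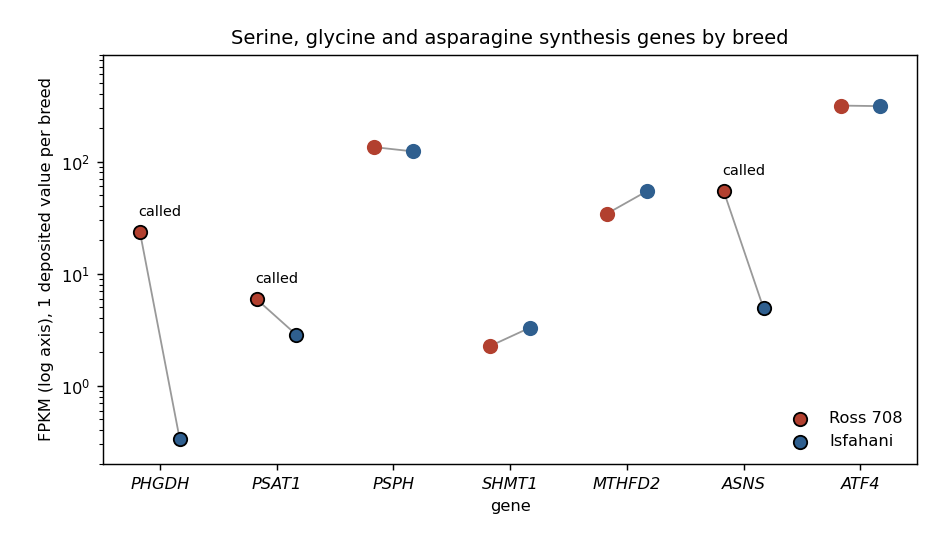
FPKM of the 7 member genes on a log axis, 1 deposited value per breed, with Ross 708 on the left and Isfahani on the right of each pair; black rims mark genes called by the deposited q-value. PHGDH stood at 23.4 FPKM in Ross 708 and 0.336 in Isfahani and ASNS at 54.1 and 4.93, while the points of PSPH and ATF4 were nearly level.

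PHGDH, the dehydrogenase that commits 3-phosphoglycerate to serine, had the widest gap of the members at a pseudocount of 1 FPKM; at 5 FPKM its log2 ratio was 2.41 and that of ASNS 2.57, so that their order turned. PHGDH stood at 23.4 FPKM in Ross 708 and at 0.336 FPKM in Isfahani, a log2 ratio of 4.19. Only 1 of the 11626 tested rows had a higher ratio. Without the pseudocount the fold was 69.8, and the log2 fold change in the authors' deposited table was 6.13, because a value as low as the one in Isfahani is compressed by adding 1 FPKM. The deposited q-value was 0.00245, the smallest the table holds, and 237 tested rows share the smallest deposited p-value with PHGDH among them. Among tested rows the level of PHGDH lay at the 79.2th percentile in Ross 708 and at the 1.34th in Isfahani. Among these rows it was thus high in the broiler muscle and near the bottom in the native muscle. The 7307 rows of status NOTEST are left out, and so low a row in Isfahani may have been tested only through its Ross 708 level. The Isfahani percentile is therefore no place among all 18973 rows. Its locus (galGal5, chromosome 8, 4233644 to 4236981) held no other row. PRKAB2, a neighbouring gene, stood at 109 FPKM in Ross 708 and 90.4 in Isfahani (q = 0.921).

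PSAT1, the aminotransferase of the next step, differed less. It stood at 5.90 FPKM in Ross 708 and 2.84 FPKM in Isfahani, a log2 ratio of 0.84 and a fold of 2.08 without the pseudocount. Its deposited q-value was 0.0194, so the call would be lost at a threshold of 0.01. PSAT1 lies on the Z sex chromosome (37821950 to 37840565), of which male chickens carry a pair and females a single copy. For the 518 tested Z rows at 1 FPKM or more in both breeds the median log2 ratio was -0.052, against -0.051 for the 9502 such rows elsewhere. The 16 rows on the female-specific W chromosome did not exceed 0.120 FPKM in Ross 708 or 0.0222 FPKM in Isfahani. None of them was tested by the authors, and the part of sex in the PSAT1 values was not tested. The neighbouring gene CEP78, whose row ends 73 bases from that of PSAT1, stood at 0.734 and 0.610 FPKM in Ross 708 and Isfahani.

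PSPH, the phosphatase that releases free serine, was abundant in both breeds. It stood at 135 FPKM in Ross 708 and 123 FPKM in Isfahani, a log2 ratio of 0.13 (q = 0.887), at the 95.9th and 95.0th percentile of the tested rows of each breed. On rescaling to a common sum its log2 ratio was -0.0035 with the HIDATA rows and 0.18 without them. The transcripts of the 3 enzymes of the same short pathway thus stood at very unequal levels. FPKM, being per length, allows transcript levels to be set side by side, but it does not measure the enzymes. PSPH stood 5.75 times above PHGDH in Ross 708 and 367 times above it in Isfahani. PSAT1 was at 0.252 times the level of PHGDH in Ross 708 and at 8.47 times its level in Isfahani. In these deposited values the order of the PHGDH and PSAT1 transcripts was thus reversed between the breeds. The Isfahani multiples over PHGDH divide by a value of 0.336 FPKM, near the floor and without a known error.

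SHMT1, the cytosolic enzyme that turns serine into glycine, was low in both breeds, at 2.26 FPKM in Ross 708 and 3.30 FPKM in Isfahani, a log2 ratio of -0.40 (q = 0.802). Its locus is shared with the rows of SMCR8 and TOP3A, so its level is less certain. MTHFD2, the mitochondrial folate enzyme, stood at 34.3 FPKM in Ross 708 and 54.3 FPKM in Isfahani, a log2 ratio of -0.65. The authors' p-value for MTHFD2 was 0.0135 before adjustment and its q-value 0.142, so it was not called. Both values lay below 0, opposite in sign to those of PHGDH and PSAT1. MTHFD2 stood 15.2 times above SHMT1 in Ross 708 and 16.5 times above it in Isfahani, close to the same proportion. It stood 1.46 times above PHGDH in Ross 708 and 162 times above it in Isfahani, where PHGDH was near the floor.

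ASNS, asparagine synthetase, also differed widely. It stood at 54.1 FPKM in Ross 708 and 4.93 FPKM in Isfahani, a log2 ratio of 3.22 and a fold of 10.99 without the pseudocount (q = 0.00245). Its ratio was the 11th highest of the 11626 tested rows. Among tested rows the level of ASNS was at the 90.0th percentile in Ross 708 and at the 41.8th in Isfahani. No other row overlapped its locus (chromosome 2, 24791279 to 24805274). Its neighbour C1GALT1 stood at 6.99 FPKM in Ross 708 and 6.16 FPKM in Isfahani (q = 0.849), and TAC1, on the other side, at 0.0567 FPKM in Ross 708 and was listed at 0 in Isfahani.

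ATF4, the regulator, was the most abundant member in both breeds. It stood at 316 FPKM in Ross 708 and 312 FPKM in Isfahani, a log2 ratio of 0.016 (q = 0.993), which became -0.12 on rescaling to a common sum with the HIDATA rows and 0.066 without them. This is a transcript level, and ATF4 is known in mammals to be set largely at translation, which FPKM does not measure. Its row is given with the coordinates of a region of 170 kilobases (chromosome 1, 50426639 to 50596493) that 10 other rows share, RPL3 and SYNGR1 among them, so its level is less certain. None of those rows was called, but not all of them were tested by the authors. PDGFB, at 12.3 FPKM in Ross 708 and 6.99 in Isfahani, was among those not called (q = 0.770).

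The order of levels differed between breeds. From lowest to highest it ran SHMT1, PSAT1, PHGDH, MTHFD2, ASNS, PSPH and ATF4 in Ross 708, and PHGDH, PSAT1, SHMT1, ASNS, MTHFD2, PSPH and ATF4 in Isfahani. Without values per pool, it cannot be said which neighbours in either order differ beyond their spread. PHGDH held the third place in Ross 708 and the lowest in Isfahani, and ASNS stood above MTHFD2 in Ross 708 and below it in Isfahani.

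**Figure D2:**
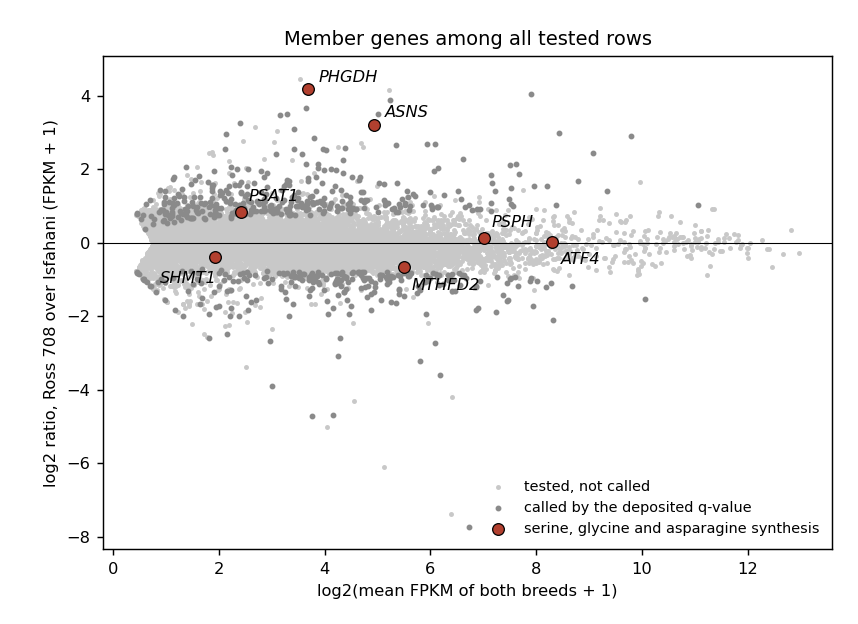
Each point is 1 of the 11626 tested rows, with log2 of the mean FPKM of both breeds plus 1 on the horizontal axis and the log2 ratio of Ross 708 over Isfahani on the vertical; dark grey points were called, and the 7 members are labelled. PHGDH (4.19) and ASNS (3.22) lie at the upper edge of the cloud, PSAT1 (0.84) at the margin of the calls, and PSPH, ATF4, SHMT1 and MTHFD2 inside the cloud.

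Genes with the most similar pair of values were sought among tested rows with a gene symbol, by Euclidean distance in log2(FPKM + 1) of the 2 breed values. Nearest to PHGDH were PLIN1, a lipid droplet coat gene (22.4 FPKM in Ross 708 and 0.844 in Isfahani, distance 0.47), THRSP, a regulator of fat synthesis (16.9 and 0.591, distance 0.51), and NELL2, a secreted protein gene (15.4 and 0.461, distance 0.59). Nearest to ASNS were NR4A3, a nuclear receptor gene (58.1 FPKM in Ross 708 and 4.25 in Isfahani, distance 0.20), OCM2 (44.0 and 5.86, distance 0.36) and CCL5, a chemokine gene (44.3 and 6.39, distance 0.43). OCM2 and CCL5 were not called (q = 0.551 and q = 0.433) and share their loci with 14 and 2 other rows. With 2 values per gene, such likeness describes the pair of levels and no more.

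Genes around the members were counted in 7 further lists, written with earlier results of these data known. Counts are read against the shares over all tested rows given above. In the folate list, 1 of 19 tested genes was called higher in Ross 708, none lower, and the median log2 ratio was -0.088. The called gene was ATIC, which closes the purine ring with a folate carbon (51.3 FPKM in Ross 708 and 28.4 in Isfahani, q = 0.0408). MTHFD1, the cytosolic folate enzyme, stood at 7.50 FPKM in Ross 708 and 3.91 in Isfahani (q = 0.226). MTHFD1L, its mitochondrial relative, stood at 12.03 FPKM in Ross 708 and 16.1 FPKM in Isfahani (q = 0.516) and thus on the side of MTHFD2. The MTHFD1L locus held 1 other row, so its level is less certain.

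Among genes that use or break down serine and glycine, 1 of 21 tested was called higher in Ross 708 and 2 lower, with a median log2 ratio of -0.027 that turned to 0.023 on centring. The higher gene was GATM, which uses glycine to begin creatine synthesis (77.1 FPKM in Ross 708 and 37.1 in Isfahani, log2 ratio 1.04, q = 0.00612). The lower ones were TDH and GCAT, which act in sequence to make glycine from threonine. TDH stood at 10.1 FPKM in Ross 708 and 133 FPKM in Isfahani (log2 ratio -3.59), and GCAT at 47.8 FPKM in Ross 708 and 120 FPKM in Isfahani (log2 ratio -1.30), both with q = 0.00245. The genes of glycine formation from threonine and the opening genes of serine synthesis therefore lay on opposite sides. GLDC, the glycine cleavage enzyme, stood at 0.0797 FPKM in Ross 708 and 0.0756 FPKM in Isfahani and was not tested by the authors, and CBS had no row.

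Of 17 tested genes of aspartate, glutamine and proline metabolism, 1 was called higher in Ross 708 and 1 lower, and the median log2 ratio was -0.25. GLUL, glutamine synthetase, stood at 23.4 FPKM in Ross 708 and 47.4 FPKM in Isfahani (log2 ratio -0.99, q = 0.00917), so the gene that makes the nitrogen donor of the ASNS reaction was lower where ASNS was higher. The 15 uncalled genes ran from -0.64 to 0.81.

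**Figure D3:**
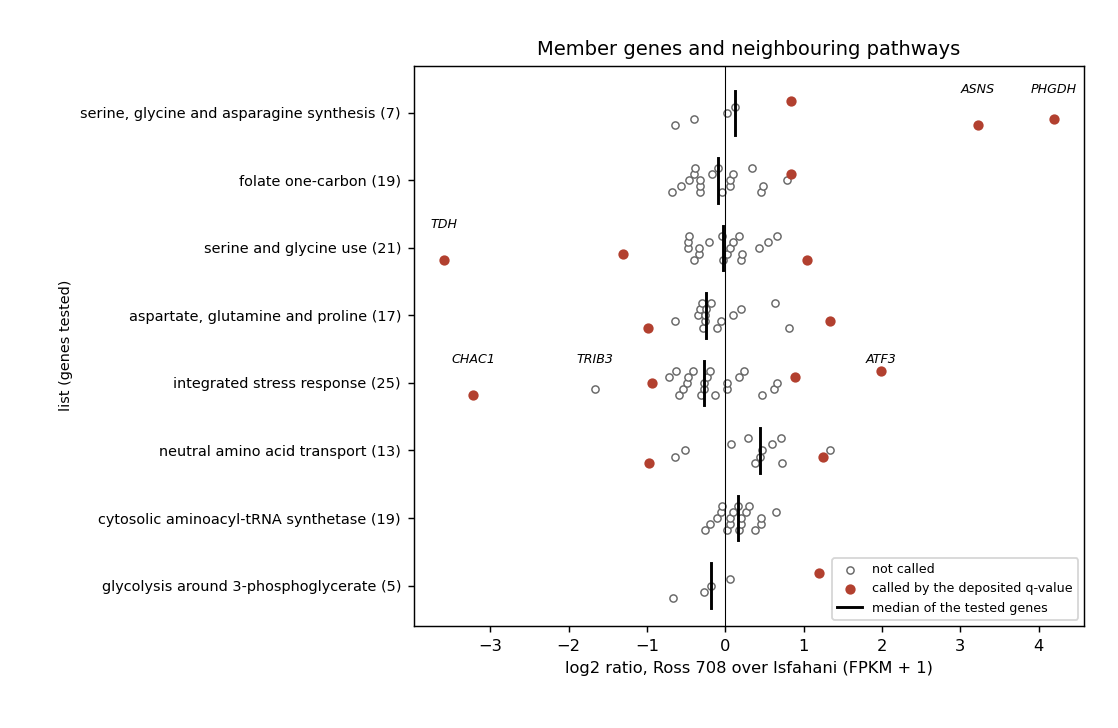
Log2 ratios of Ross 708 over Isfahani for each tested gene of the member list and of 7 neighbouring lists, with filled points for called genes, a black bar for the median of each list, and gene names where the ratio was 1.5 or more from 0. PHGDH, ASNS and ATF3 stand to the right, TDH, CHAC1 and TRIB3 to the left, and the aminoacyl-tRNA synthetases cluster near 0.

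Genes of the integrated stress response, the pathway in which ATF4 acts, were found on both sides. Of 25 tested, 2 were called higher in Ross 708, 2 lower and 21 not, and the median log2 ratio was -0.27. ATF3, a transcription factor that ATF4 induces in mammals, stood at 28.7 FPKM in Ross 708 and 6.49 FPKM in Isfahani (log2 ratio 1.98, q = 0.00245). HSPA5, the chaperone of the endoplasmic reticulum, stood at 142 FPKM in Ross 708 and 76.1 FPKM in Isfahani (q = 0.0306). CHAC1, which degrades glutathione and in mammals is a target of ATF4 and its partners, stood at 9.89 FPKM in Ross 708 and 100.04 FPKM in Isfahani (log2 ratio -3.21, q = 0.00245). KLHL24, called narrowly (q = 0.0492), stood at 23.7 FPKM in Ross 708 and 46.1 FPKM in Isfahani, and its symbol is on 2 rows of the same locus. TRIB3, another mammalian ATF4 target, had 0.432 FPKM in Ross 708 and 3.54 FPKM in Isfahani without being called (q = 0.165). The loci of ATF3 and TRIB3 each held 1 other row, so their levels are less certain. Genes known as ATF4 targets in mammals thus differed in opposite directions, ASNS and PHGDH higher and CHAC1 lower in Ross 708. The ATF4 transcript was near equal, on a locus shared with 10 other rows, and the part of ATF4 in these differences was not tested. Of the kinases that feed into ATF4, the pair fixed by name was not called, EIF2AK4 at 6.83 and 6.68 FPKM and EIF2AK3 at 2.18 and 1.69 FPKM in Ross 708 and Isfahani (q = 0.981 and q = 0.620). DDIT3 had no row.

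Transporters of neutral and basic amino acids included 13 tested genes, of which 1 was called higher in Ross 708 and 1 lower, while 10 of 13 had a positive log2 ratio and the median was 0.44. SLC7A1, which carries arginine and lysine, stood at 2.58 FPKM in Ross 708 and 0.505 FPKM in Isfahani (log2 ratio 1.25, q = 0.00245). SLC38A3, a glutamine and asparagine carrier, stood at 9.97 FPKM in Ross 708 and 20.5 FPKM in Isfahani (log2 ratio -0.97, q = 0.0205). SLC38A2 stood at 40.4 and 24.4 FPKM and SLC7A5, the large neutral amino acid carrier, at 113 and 68.3 FPKM in Ross 708 and Isfahani, and neither was called (q = 0.104 and q = 0.200). The cystine carrier SLC7A11 was not tested by the authors, at 0.220 FPKM in Ross 708 and 0.0301 FPKM in Isfahani.

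None of 19 tested cytosolic aminoacyl-tRNA synthetase genes, which attach amino acids to tRNA, was called. Their log2 ratios ran from -0.26 to 0.65 with a median of 0.17. In the authors' deposited table the smallest q-value among them was 0.129. Of the glycolysis genes around 3-phosphoglycerate, 5 were tested, with a median log2 ratio of -0.18, and ALDOC was called higher in Ross 708 (60.2 FPKM in Ross 708 and 25.7 in Isfahani, q = 0.00245). PGK1 stood at 3653 FPKM in Ross 708 and 4415 in Isfahani (q = 0.805) and TPI1 at 4376 and 6929 FPKM (q = 0.379). GAPDH, PKM and PGAM1 had no valid estimate, PGAM1 having 8211 FPKM in Ross 708 and a listed 0 in Isfahani, so these genes cannot be compared between the breeds.

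The authors' deposited enrichment sheets placed only PHGDH, PSAT1 and ASNS of the 8 symbols in any term. Within each sheet, all genes with a row differed in the same direction in this comparison. The terms therefore reuse its differences and are no separate support for the member calls. All 3 were in the term carboxylic acid biosynthetic process, with 13 genes of a term size of 259, a fold enrichment of 3.10 and a Benjamini-adjusted p of 0.0154 in the authors' deposited table. Fatty acid genes such as SCD and ELOVL5 were in the same term. L-serine biosynthetic process held PHGDH and PSAT1, 2 of its 4 genes, at an adjusted p of 0.358. The pathway sheet held both under biosynthesis of amino acids, with 5 genes and an adjusted p of 0.419 in the authors' deposited table.

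Marker genes of other cells also differed between the breeds, and in bulk muscle fewer cells of a type and less RNA per cell cannot be told apart. All 9 tested adipocyte genes had positive log2 ratios, 6 of them called, with a median of 2.26 and a summed level of 449 FPKM in Ross 708 and 118 FPKM in Isfahani. All 9 tested fibroblast genes had positive ratios, 3 of them called (median 0.64, summed level 3266 and 1989 FPKM), as had all 9 leukocyte genes, 1 of them called (median 0.57, summed level 3090 and 2365 FPKM), and all 8 endothelial genes, none called (median 0.35, summed level 67.2 and 48.3 FPKM). CD74, on a locus shared with 14 other rows, made up most of the leukocyte sum, at 2734 FPKM in Ross 708 and 2138 in Isfahani. The smooth muscle list had 2 of 6 tested genes called higher (median 0.45, summed level 1997 and 2022 FPKM), and 5 of the 6 had positive ratios. DES, on a locus shared with 2 other rows, made up most of that sum, at 1917 FPKM in Ross 708 and 1971 in Isfahani. The near equal sums are therefore mostly those of DES and no measure of smooth muscle content. In the list of dividing cells 16 of 17 genes had positive ratios, 2 of them called (TOP2A and MKI67), with a median of 0.46. Their summed levels were 202 FPKM in Ross 708 and 206 FPKM in Isfahani. PCNA, the gene with a negative ratio, made up most of these sums, at 124 FPKM in Ross 708 and 157 in Isfahani. None of the adipocyte markers with a row was at 0 in either breed. Of the fibroblast markers COL1A1 was listed at 0 in both. Its row runs only from base 4 to 396 of a sequence outside the named chromosomes and was not tested, so this 0 is no measure of the gene. Among tested genes, no marker list other than the adipocyte one had a ratio as high as that of ASNS. The part of these cells in the values of PHGDH, ASNS and PSAT1 was not tested.

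**Figure D4:**
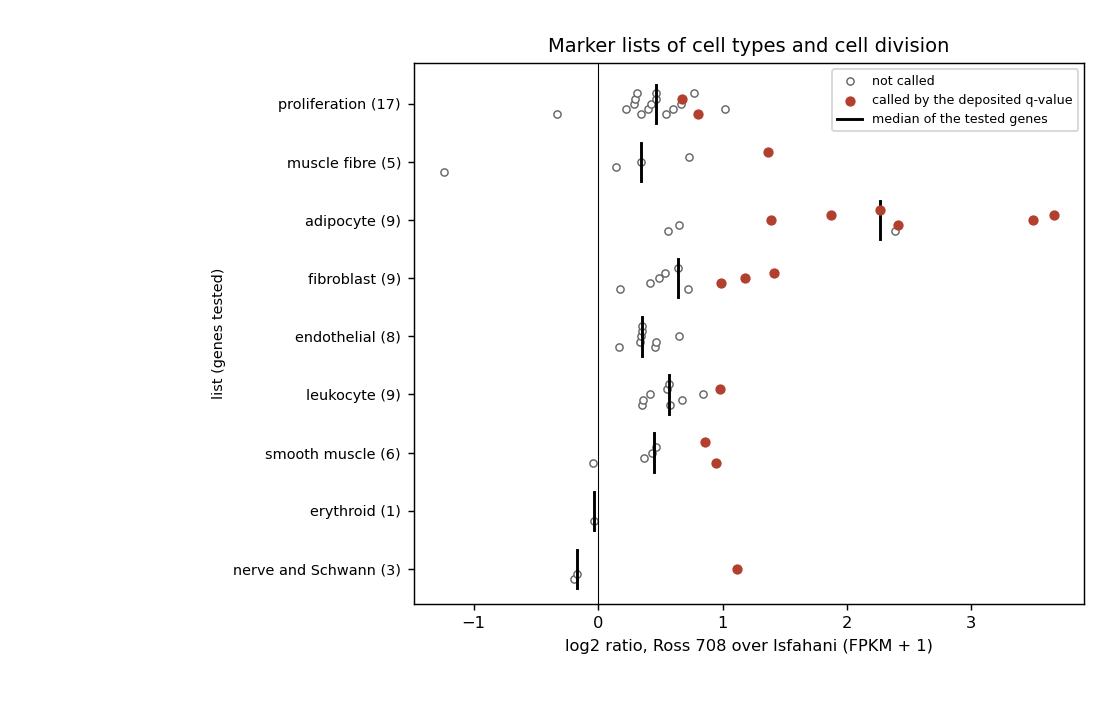
Log2 ratios of Ross 708 over Isfahani for each tested marker gene of 9 lists, with filled points for called genes and a black bar for the median. Adipocyte genes reach furthest to the right, with a median of 2.26, and the medians of the dividing cell, fibroblast, leukocyte, smooth muscle and endothelial lists lie between 0.35 and 0.64.

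Muscle identity itself could be read only in part. Of 17 muscle fibre markers 10 had a row, 5 were tested and 5 had no valid estimate, ACTA1 and MYL1 being listed at 0 in both breeds. Of the 5 tested, 4 had positive log2 ratios and 1 a negative one, with a median of 0.34. TNNC1 stood at 3156 FPKM in Ross 708 and 2862 FPKM in Isfahani and PVALB at 109 and 86.0 FPKM. CASQ2, on a locus with 1 other row, stood at 1086 FPKM in Ross 708 and 653 FPKM in Isfahani (q = 0.233). The slow troponin gene TNNI1 was called, at 6.72 FPKM in Ross 708 and 2.00 FPKM in Isfahani (q = 0.0194). The slow myosin gene MYH7B lay the other way, at 0.663 FPKM in Ross 708 and 2.92 FPKM in Isfahani (log2 ratio -1.24), and was not called (q = 0.182). The MYH7B locus held 2 other rows, so its level is less certain. Of the erythroid markers 1 gene was tested, CA2 (72.0 and 73.6 FPKM, log2 ratio -0.031). The globin rows HBAD and HBZ were listed at 0 in both breeds and were not tested by the authors, so their level is not known. The nerve list had 3 tested genes with a median of -0.17, of which NCAM1 was called higher in Ross 708 (35.9 and 16.01 FPKM, q = 0.0285).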

How the data were processed

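Per the labels, Trizol RNA of 3 birds was mixed per pool and sequenced from a TruSeq version 2 library. The authors ran HISAT2 and Cufflinks 2.2.1 on galGal5 after Trimmomatic and FastQC 0.11.5, per the submitters' processing notes. Not given in the sources used here are the other versions, the annotation, the library scaling and the use of strand. The deposited FPKM values, log2 fold changes, p-values and q-values have the Cuffdiff layout, per the file headers. Recomputed Benjamini-Hochberg values over tested rows differed from the deposited q-values by at most 5.22e-07, and the smallest deposited p-value is 5e-05. The deposited test statistic (a score) was not used. The deposited enrichment sheets give counts of genes, a percent of the list, fold enrichment as a ratio and p-values, per the file headers. Depth is unknown, since no counts were used. In 39 rows with status HIDATA the authors' table gives no valid estimate, and all 39 are listed at 0 in Isfahani.

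No new test was run: with 1 value per breed, calls are those of the authors' deposited q-value. Ratios and medians were computed with pandas 2.3.3 in Python 3.11.15 and tested on simulated data. The simulation left out rows of low mean FPKM, PSAT1 and SHMT1 among them. A symbol on several rows was read from the row with the highest mean FPKM. The members and all gene lists were chosen with earlier results of these data known. Genes named from a list are its called genes, up to 6 by size of ratio, and a set of genes fixed by name (such as TRIB3, SLC7A5 and EIF2AK4). Marker genes, glycolysis genes other than ALDOC and PGAM1, neighbours of the members and term members were named after their values were seen. Loci are on galGal5 as deposited. A planned search of promoters for an ATF4 motif was not run, and no sequence is printed. Values of some genes are not reported here.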

Additional observations from a re-analysis of the deposited data

How the results depend on the processing

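With 1 pooled value per breed, the error of each FPKM, the depth behind it and the spread between birds are unknown. No paired analysis was possible because the deposited columns combine both replicates of a breed, and for the same reason no replicate could be left out. The promoter alternatives were not run. The signs of PHGDH, PSAT1, ASNS, SHMT1 and MTHFD2 were the same under every alternative run. Only rescaling and centring can change a sign at all. The largest such shift, -0.13, was smaller in size than each of these ratios, so this sameness was fixed in advance. PHGDH and ASNS were called at both q-value thresholds. A pseudocount of 5 FPKM moved the log2 ratio of PHGDH to 2.41, below that of ASNS (2.57), and that of PSAT1 to 0.47 and of SHMT1 to -0.19. At a q-value threshold of 0.01 PSAT1 (log2 ratio 0.84) was no longer called. The count of 3 members called became 2 at that threshold and with an absolute log2 ratio of at least 1, where PSAT1 dropped out, and 2 with at least 1 FPKM in both breeds, where PHGDH dropped out. The ratio cut uses the pseudocount of 1 FPKM, and the deposited log2 fold change of PSAT1, without a pseudocount, was 1.05. Rescaling to a common sum of all rows shifted Ross 708 values by -0.13 on the log2 scale, and the ratios of low genes by less, and PSPH became -0.0035, ATF4 -0.12 and the members' median -0.0035. Without the HIDATA rows, which are at 0 in Isfahani, these were 0.18, 0.066 and 0.18, and on centring 0.18, 0.067 and 0.18. Rescaling without HIDATA rows and centring turned the median of serine and glycine use to 0.020 and 0.023, and that of the erythroid list to 0.017 and 0.019. The adipocyte median was 1.45 with a pseudocount of 5 FPKM and 1.63 with at least 1 FPKM in both breeds.

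At a q-value threshold of 0.01, calls higher in Ross 708 became 0 for the folate, dividing cell, muscle fibre and nerve lists and 1 for the stress response and smooth muscle lists. Calls lower in Ross 708 became 1 for the stress response list and 0 for the transporters. Requiring an absolute log2 ratio of at least 1 gave 0 calls higher for the folate, dividing cell, leukocyte and smooth muscle lists, 0 lower for the aspartate and transporter lists, and 1 in each direction for the stress response list. Requiring at least 1 FPKM in both breeds left 0 transporters called higher. The cause was not tested where the construction of the alternative does not give it.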

Other observations

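Some names of the authors' enrichment sheets can mislead. The sheets named Down for Ross hold genes that were higher in Ross 708 in the expression table, 270 of 270 genes with a row in the process sheet and 85 of 85 in the pathway sheet. In the sheet named UP for Native, 164 of 164 genes were lower in Ross 708, so that name goes with the values. PHGDH, PSAT1 and ASNS stand in the sheets named Down, although each was higher in Ross 708.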
